A study of Mus musculus with 23 samples.

Results

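The medium bins hold the brain cells with an intermediate fluorescence of the dosed antibody, and here those of ATV-TfR were set against those of ATV-CD98hc. Members were the cells of the 4 libraries whose titles name the medium bin of either antibody, with at least 500 genes, at least 800 unique molecular identifiers (UMIs, counts of RNA molecules) and at most 10% mitochondrial UMIs. This filter passed 69838 of the 249715 cells that it passed in all 23 libraries. After removal of doublets 65421 of 234026 cells (28.0%) were kept.

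Both groups came from mice labelled as 3.3 months old (12 weeks in the description of the series), on a C57Bl6J background and sampled 24 hours after 45 mg/kg of antibody conjugated to the far-red dye AF647 was given into the tail vein. The ATV-TfR group was TfR mu/hu KI, a mouse/human knock-in of the transferrin receptor, dosed with DNP02_hIgG1_LALAPG_ATV35.23.2. The ATV-CD98hc group was CD98hc mu/hu KI, dosed with DNP02 LALAPG LLB2-10-8 monovalent. LALAPG names Fc mutations that weaken binding to Fc gamma receptors, and both antibodies carried it. Each group had 2 pools, a pool being the dissociated cells of 1 male and 1 female mouse, so a library is 1 pool in 1 bin and the bins of a pool hold cells of the same mice. Olfactory bulbs, cerebellum, pons and medulla had been taken off, actinomycin D and anisomycin were present during dissociation, and myelin was removed on sucrose. Live cells were sorted into negative, low, medium and high bins by tertile gates set on the positive cells of ATV-TfR mice and then used for every treatment. About 30% of the cells of ATV-TfR mice and about 20% of those of ATV-CD98hc mice were positive, so the medium bin is a fixed range of fluorescence, not the same fraction of cells in both. Antibody and knock-in coincide and cannot be told apart. Receptor RNA levels compare different alleles of each receptor gene, and the effect of the human sequence on read mapping was not tested.

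The transferrin receptor, encoded by Tfrc, imports iron bound to transferrin and is abundant on brain capillary endothelium. CD98hc, encoded by Slc3a2, is the heavy chain that brings amino acid exchangers such as LAT1 (Slc7a5) to the cell surface, and it is found on endothelium and on astrocytes. An antibody transport vehicle (ATV) binds one of these receptors on the blood side of the capillary wall and is carried across it. Endothelial cells line the vessels, and astrocytes wrap them with their endfeet. In the GENCODE M21 annotation of GRCm38, Tfrc lies at chr16:32608920-32632794 on the plus strand and Slc3a2 at chr19:8706882-8723369 on the minus strand.

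The ATV-TfR libraries kept 14739 and 14468 cells from pools 1 and 2, and the ATV-CD98hc libraries kept 16872 and 19342. Total UMIs ran from 72555315 to 90307818 per library, and the median per kept cell was 3806 and 3889 in ATV-TfR against 3764.5 and 3075 in ATV-CD98hc. Any 2 of these libraries shared between 44 and 84 cell barcodes. Doublets were removed at an automatic score threshold in the ATV-TfR libraries (8.09% and 6.31% of cells) and above a fixed percentile in the ATV-CD98hc libraries (5.16% and 5.97%), so the rule coincides with the treatment. Clusters carry the ending -like because their names come from marker genes. The 12 endothelial markers summed to between 30420 and 32328 CPM in the endothelial-like cells of the 4 libraries, and the 12 astrocyte markers to between 20644 and 22634 CPM in astrocyte-like cells. CPM is the UMI count scaled to the total UMIs of that class in that library. Depth by class differed from that of the whole libraries. The median UMIs of endothelial-like cells were 2397 and 2552.5 in ATV-TfR against 3598 and 2971 in ATV-CD98hc. Those of astrocyte-like cells were 4124 and 4196 against 4977 and 3760, and those of pericyte-like cells 2896 and 3159 against 6704.5 and 4845. The part of depth in the gene calls was not tested. With 2 pools a group, p-values measure the spread between pools, estimated over all groups of the series, with the bins of a pool taken as separate samples. With the 4 medium libraries alone, where each mouse enters once, 6 classes, 779 endothelial-like genes and 3124 astrocyte-like genes were called, beside the 6, 864 and 3196 described here.

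The same gate held mostly astrocyte-like cells after ATV-TfR and mostly endothelial-like cells after ATV-CD98hc. Astrocyte-like cells made up 75.3% and 76.5% of the 2 ATV-TfR libraries and 7.43% and 9.24% of the 2 ATV-CD98hc libraries. Endothelial-like cells made up 17.2% and 16.3% against 81.8% and 82.0%. Neither class overlapped between the groups, as held for 7 of the 10 classes (70.0%), and the pools of a group lay close together. The fitted share was 9.11-fold higher in ATV-TfR for astrocyte-like cells (log2 fold change 3.19, SE 0.27, adjusted p = 6.0e-10, edgeR quasi-likelihood test) and 4.89-fold lower for endothelial-like cells (-2.29, SE 0.26, adjusted p = 7.7e-08). Of 10 classes tested, 6 had an adjusted p below 0.05 (60.0%), 2 higher (20.0%) and 4 lower (40.0%) in ATV-TfR. Both of the large classes held under every alternative that tested them.

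**Figure D1:**
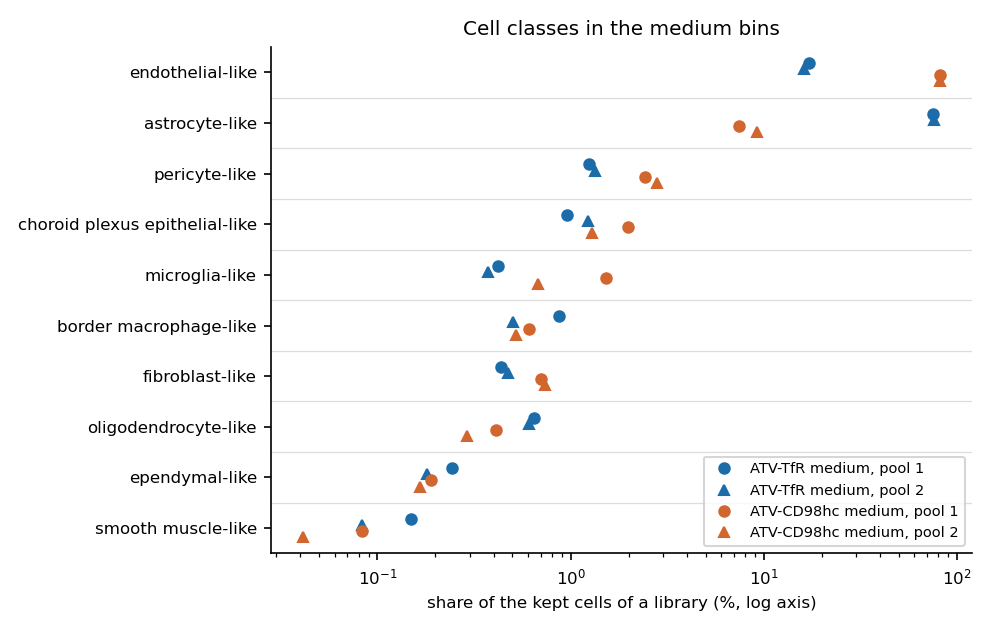
Share of kept cells in each of the 10 named classes (percent, log axis) for the 4 medium libraries, with blue for ATV-TfR, orange for ATV-CD98hc, circles for pool 1 and triangles for pool 2. Astrocyte-like cells lie above 75% in both blue libraries and below 9.5% in both orange ones, and endothelial-like cells show the opposite order.

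The other 4 calls concerned classes of at most 2.80% of any of these libraries and rested on single pools. Pericyte-like cells, the mural cells of capillaries, were 1.24% and 1.33% against 2.44% and 2.80% (log2 fold change -1.03, SE 0.32, adjusted p = 0.010). Their call was lost without ATV-TfR pool 1 (adjusted p = 0.080), ATV-TfR pool 2 (0.063) or ATV-CD98hc pool 2 (0.058). The pericyte-like cells held 23983 and 23776 against 14587 and 22000 CPM of pericyte markers. Their endothelial markers summed to 11046 and 10589 against 20236 and 17258 CPM. The part of barcodes with RNA of both cell types in this share was not tested. Microglia-like cells, the resident immune cells of brain tissue, were 0.421% and 0.373% against 1.54% and 0.677%, with ATV-CD98hc pool 1 far above the rest (-1.47, SE 0.43, adjusted p = 0.0078). Without that pool the difference was -0.77 (adjusted p = 0.15), and without ATV-TfR pool 2 it was -1.39 (adjusted p = 0.063). Fibroblast-like cells were 0.434% and 0.477% against 0.705% and 0.739%, and their call (-0.66, adjusted p = 0.045) was lost when any of the 4 pools was left out (adjusted p from 0.081 to 0.18). Oligodendrocyte-like cells, the myelinating glia, were 0.645% and 0.608% against 0.409% and 0.290% (0.85, adjusted p = 0.045), a call lost without either ATV-TfR pool (adjusted p = 0.17 and 0.081) or without ATV-CD98hc pool 2 (0.24). Without ATV-CD98hc pool 1, ATV-CD98hc pool 2, ATV-TfR pool 1 or ATV-TfR pool 2, the count of 6 called classes became 4, 3, 3 or 2.

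Shares within a library are bound to add up, so the small classes were also taken as shares of what was left. With endothelial-like cells out of the denominator 9 classes passed, 1 with more and 8 with fewer cells in ATV-TfR, oligodendrocyte-like cells now among the fewer (-1.35), and the astrocyte-like difference was 0.98. With endothelial-like and astrocyte-like cells both out, 3 were called, 2 higher and 1 lower. Border macrophage-like (0.29), choroid plexus epithelial-like (-0.58), ependymal-like (0.26) and smooth muscle-like cells (0.91) were not called against all kept cells.

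The astrocyte difference was larger at the medium gate than at either neighbour. In the low bins astrocyte-like cells were 85.1% and 89.4% of ATV-TfR libraries and 65.9% and 70.1% of ATV-CD98hc libraries. In the high bins they were 3.26% and 2.44% against 1.84% and 1.65%. The log2 difference between the antibodies was 0.36 in the low, 3.19 in the medium and 0.71 in the high bins. The medium value exceeded the low one by 2.83 (SE 0.36, adjusted p = 7.7e-07, edgeR interaction test) and the high one by 2.48 (SE 0.36, adjusted p = 6.4e-06). A share cannot exceed the whole library, so at 65.9% and 70.1% in ATV-CD98hc the low bins left little room for a higher share in ATV-TfR. The part of this limit in the gap between low and medium bins was not tested.

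Endothelial-like cells followed another order over the gates. They were 2.06% and 1.25% against 11.7% and 11.1% in the low bins, and 89.7% and 92.4% against 91.0% and 91.9% in the high bins. The log2 difference was -2.78 in the low, -2.29 in the medium and -0.01 in the high bins. The limit of a share at the whole library bears on these values too, as shares reached 82.0% at medium and 92.4% at high. The medium value differed from the high one by -2.28 (SE 0.36, adjusted p = 7.7e-06), while against the low bins the test did not pass (adjusted p = 0.37). Of the 10 classes, 1 (10.0%) differed in its contrast between medium and low bins and 6 (60.0%) between medium and high bins. With the pool of mice as a term, an alternative chosen after seeing the data, these counts were 1 and 8. Leaving out single libraries gave 6 to 8 for the latter. The other 4 were border macrophage-like (1.48), ependymal-like (4.16), fibroblast-like (2.88) and pericyte-like cells (-1.77). The ATV-TfR high bins held only 3 and 1 ependymal-like and 17 and 11 fibroblast-like cells.

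Of 25 clusters 4 held markers of several classes and were left unnamed. Cluster 16, led by the dividing and precursor cell genes Top2a and Sox11, had 51 and 39 cells in the ATV-TfR medium libraries and 0 in both ATV-CD98hc ones, where a count of 0 allows a share of up to 0.0178% and 0.0155%. Cluster 13, led by neuronal genes such as Syt1, Chga and Meg3, had 143 and 65 cells against 24 and 41. Cluster 5 joined the arterial genes Gkn3 and Bmx with the astrocyte gene Gfap and had 95 and 161 cells against 312 and 314. Cluster 23, led by the neutrophil genes S100a8 and S100a9, had 78 and 88 against 133 and 76. Clusters 5, 13 and 16 kept the 2 groups apart, and cluster 23 did not.

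The vessel segments behind the endothelial-like cells differed as well. Arteries, capillaries and veins of the brain carry distinct endothelial gene programmes, and the endothelial-like cells were split by those genes without use of Tfrc and Slc3a2. Arterial-like cells were 49.0% and 50.3% of the endothelial-like cells of ATV-TfR (1244 and 1185 cells) and 12.6% and 16.1% of those of ATV-CD98hc (1736 and 2555 cells). Capillary-like cells were 39.8% and 38.4% against 71.2% and 66.0%. Venous-like cells were 9.05% and 9.30% against 13.1% and 16.5%. All 3 types kept the groups apart, with the arterial share on the ATV-TfR side.

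As a single sub-cluster the arterial one was the only one of 6 called (16.7%; log2 fold change 1.79, SE 0.27, adjusted p = 1.1e-04), and this held with each medium library left out. Sub-clusters of the same type were then summed, a grouping chosen after seeing the data, and 3 of 5 types were called (60.0%): arterial-like 1.79 (SE 0.25, adjusted p = 1.9e-08), capillary-like -0.81 (SE 0.25, adjusted p = 0.0045) and venous-like -0.69 (SE 0.25, adjusted p = 0.015). Without ATV-TfR pool 2 only the arterial call was left, with capillary-like cells at an adjusted p of 0.051 and venous-like cells at 0.068. The venous call was also lost without ATV-CD98hc pool 2 (-0.51, adjusted p = 0.058) and without ATV-TfR pool 1 (-0.67, adjusted p = 0.089). Capillary-like cells came in 2 sub-clusters, and ATV-CD98hc pool 1 stood apart in both. The first held 68.2% of its endothelial-like cells, against 23.4% in ATV-CD98hc pool 2 and 14.8% and 12.2% in ATV-TfR. The second held 3.06% of them, against 42.6%, 25.03% and 26.2%.

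Arterial-like cells took a smaller share of endothelial-like cells in the high than in the low bins of both groups. The arterial-like share in ATV-TfR was 46.4% and 45.2% in the negative, 73.5% and 69.2% in the low, 49.0% and 50.3% in the medium and 15.1% and 13.2% in the high bins. In ATV-CD98hc it was 58.8% and 53.4%, 43.9% and 35.0%, 12.6% and 16.1%, and 8.92% and 10.8%. Capillary-like cells were 69.3% and 71.3% of the endothelial-like cells of the ATV-TfR high bins, beside 71.2% and 66.0% in the ATV-CD98hc medium bins. The negative bins held only 58 to 125 endothelial-like cells a library.

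**Figure D2:**
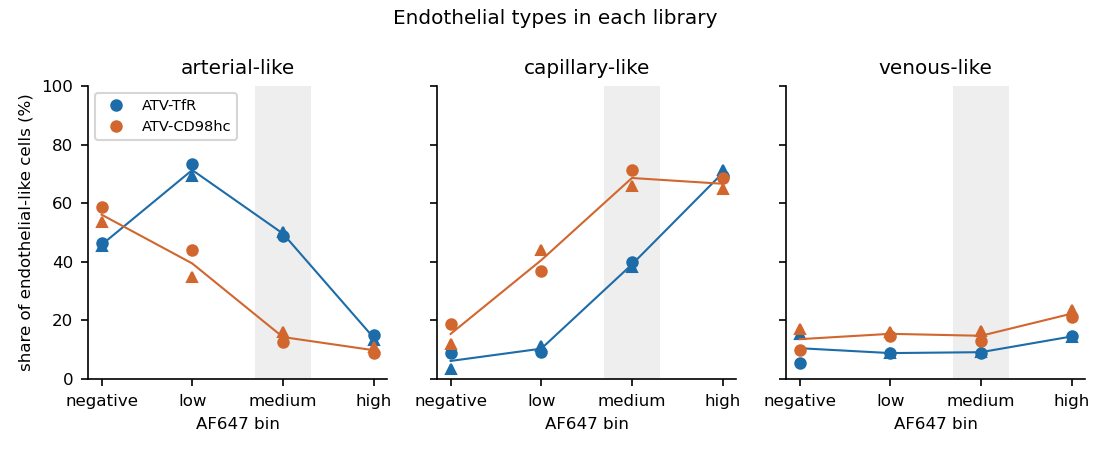
Share of arterial-like, capillary-like and venous-like cells among the endothelial-like cells of each library (percent), over the 4 AF647 bins, with the medium bins shaded; points are libraries (circle for pool 1, triangle for pool 2) and lines join the means. In the shaded bins the arterial share is 49.0% and 50.3% in ATV-TfR (blue) against 12.6% and 16.1% in ATV-CD98hc (orange).

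Astrocytes of the telencephalon (cortex, hippocampus, striatum) and of the regions behind it express different patterning genes. Telencephalic-like cells were 46.4% and 52.2% of astrocyte-like cells in ATV-TfR and 30.2% and 32.9% in ATV-CD98hc. Non-telencephalic-like cells were 52.0% and 46.9% against 69.4% and 66.6%. The groups did not overlap, and 2 of 3 summed types were called (66.7%), telencephalic-like at 0.64 (SE 0.16, adjusted p = 0.0062) and non-telencephalic-like at -0.46 (SE 0.16, adjusted p = 0.027). Neither call held without ATV-CD98hc pool 1 (0.58, adjusted p = 0.064 and -0.43, adjusted p = 0.11) or without ATV-TfR pool 2 (0.56, adjusted p = 0.056 and -0.39, adjusted p = 0.10), and the second was also lost without ATV-CD98hc pool 2 (-0.49, adjusted p = 0.069).

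Of the 6 astrocyte sub-clusters 2 were called (33.3%), and the count was 0 without ATV-CD98hc pool 1 or ATV-TfR pool 2 and 1 without either of the others. A telencephalic one led by Crym and Hopx was 28.6% and 31.6% against 10.1% and 14.8% (1.27, SE 0.31, adjusted p = 0.015). A non-telencephalic one led by Sntg1 and Car10 was 24.6% and 21.3% against 46.5% and 42.0% (-0.95, SE 0.28, adjusted p = 0.022). In ATV-TfR the telencephalic-like share was 50.4% and 52.0% in the low, 46.4% and 52.2% in the medium and 55.0% and 60.3% in the high bins. In ATV-CD98hc it was 40.8% and 47.2% in the low, 30.2% and 32.9% in the medium and 13.7% and 20.1% in the high bins. One sub-cluster of 52 cells came from ATV-TfR pool 1 alone.

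Each antibody's own receptor RNA was the lower one. In endothelial-like cells Tfrc was at 106 and 129 CPM in ATV-TfR and at 597 and 450 CPM in ATV-CD98hc. Both ATV-TfR pools lay far below both ATV-CD98hc pools, and the level was 4.60-fold lower (log2 fold change -2.20, SE 0.20, adjusted p = 9.2e-07, edgeR). Slc3a2 ran the other way, at 445 and 458 CPM in ATV-TfR and 237 and 249 CPM in ATV-CD98hc, without overlap (0.84, SE 0.20, adjusted p = 0.0087). Of all genes tested in endothelial-like cells 40.6% did not overlap between the groups, and of those in astrocyte-like cells 61.1%. The Slc3a2 call was lost without ATV-TfR pool 2 (0.80, adjusted p = 0.10).

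Both differences were also found within each vessel segment. In arterial-like cells Tfrc was at 49.5 and 71.0 CPM against 215 and 211 (-1.84), in capillary-like cells at 175 and 195 against 632 and 486 (-1.65), and in venous-like cells at 181 and 269 against 768 and 568 (-1.57). Slc3a2 in the same order was at 316 and 333 against 175 and 164 (0.92), 625 and 641 against 244 and 264 (1.26), and 588 and 609 against 276 and 288 (1.08). Every one of these 6 tests passed. Of the 3 segments, arterial-like cells had the lowest level of both RNAs in each of the 4 libraries.

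Slc7a5, the light chain LAT1 that pairs with CD98hc, was at 599 and 594 CPM against 977 and 1031 in endothelial-like cells (-0.81, SE 0.22, adjusted p = 0.027). That call was lost without ATV-CD98hc pool 2 (-0.74, adjusted p = 0.065), ATV-TfR pool 1 (-0.79, adjusted p = 0.19) or ATV-TfR pool 2 (-0.82, adjusted p = 0.22), and Slc7a5 passed in none of the 3 segments taken alone (-0.53 arterial, -0.17 capillary, -0.38 venous). Fcgrt, the neonatal Fc receptor that returns endocytosed IgG to the cell surface, was at 578 and 584 against 469 and 680 CPM, with overlapping groups (-0.04, SE 0.22, adjusted p = 0.96).

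In astrocyte-like cells Slc3a2 was at 324 and 331 CPM in ATV-TfR and 138 and 124 in ATV-CD98hc (1.35, SE 0.11, adjusted p = 8.9e-08). The difference was 1.35 in telencephalic-like and 1.38 in non-telencephalic-like cells alone. Tfrc was at 39.0 and 44.0 against 71.2 and 61.9 CPM (-0.65, SE 0.11, adjusted p = 4.0e-04), and Slc7a5 at 29.5 and 33.3 against 49.2 and 70.9 CPM (-0.91, SE 0.15, adjusted p = 2.6e-04). Of all classes, endothelial-like cells have the most Tfrc and Slc7a5, and the 12 endothelial markers summed to 56.5 and 46.3 CPM against 615 and 905 CPM in these astrocyte-like cells. The part of these markers in the 2 lower values was not tested.

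Across classes Tfrc was lower and called in all 9 classes tested, with differences from -2.80 in border macrophage-like and choroid plexus epithelial-like cells to -0.65 in astrocyte-like cells. Slc3a2 was higher and called in 6 of the 9, among them microglia-like (219 and 264 against 132 and 101 CPM; 1.14, adjusted p = 0.0018) and oligodendrocyte-like cells (102 and 112 against 49.3 and 51.4 CPM; 1.14, adjusted p = 0.011). It did not pass in border macrophage-like (0.72), fibroblast-like (0.48) or pericyte-like cells (0.56). In the small classes the endothelial marker sums were lower in ATV-TfR as well, and their part in these Tfrc values was not tested.

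**Figure D3:**
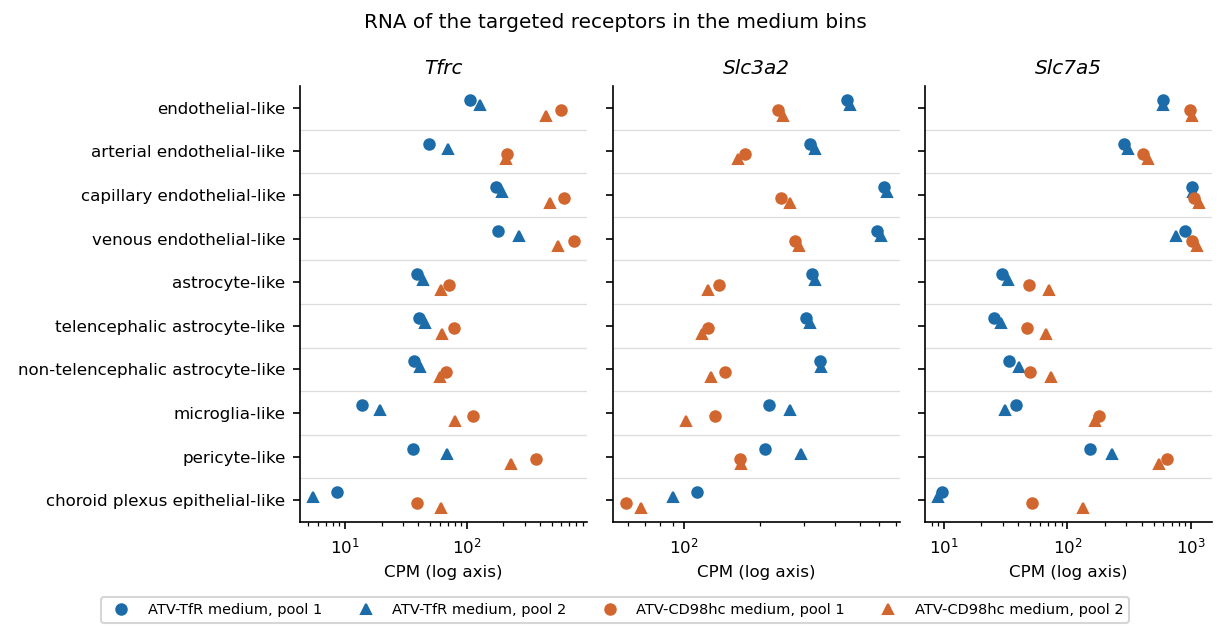
Level of Tfrc, Slc3a2 and Slc7a5 (CPM of the class, log axis) in 10 classes and types of the 4 medium libraries, blue for ATV-TfR, orange for ATV-CD98hc, circles for pool 1 and triangles for pool 2. In endothelial-like cells Tfrc lies at 106 and 129 in blue against 597 and 450 in orange, while Slc3a2 lies at 445 and 458 in blue against 237 and 249 in orange.

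Receptor RNA of all endothelial-like cells, with the vessel segments combined, also varied along the gates within each treatment. The arterial-like share of these cells varied over the same gates. In the medium libraries arterial-like cells had the lowest level of both RNAs among the arterial-like, capillary-like and venous-like segments. The part of the arterial-like share in the Tfrc and Slc3a2 series was not tested. Endothelial Tfrc in ATV-TfR was 54.2 and 58.9 CPM in the negative, 35.5 and 54.7 in the low, 106 and 129 in the medium and 229 and 251 in the high bins. In ATV-CD98hc it was 160 and 166, then 282 and 294, 597 and 450, and 671 and 496. The difference between antibodies was -2.72 in low, -2.20 in medium and -1.25 in high bins. The medium and high differences stood -0.95 apart, which did not pass (adjusted p = 0.23) but passed with the pool of mice as a term (-0.96, adjusted p = 3.4e-05).

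Endothelial Slc3a2 in ATV-TfR was 290 and 314 CPM in the negative, 249 and 245 in the low, 445 and 458 in the medium and 633 and 664 in the high bins. The same series in ATV-CD98hc read 81.9 and 132, 203 and 189, 237 and 249, and 253 and 362. At each gate both ATV-CD98hc pools were below both ATV-TfR pools for Slc3a2 and above them for Tfrc.

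Marker sums of the class that dominated a library were also higher in its other classes. In endothelial-like cells the 12 astrocyte markers summed to 545 and 705 CPM in ATV-TfR and 138 and 170 in ATV-CD98hc, and 12 of 12 were higher in both ATV-TfR pools, beside 25.6% of all genes tested there. In astrocyte-like cells 12 of 12 endothelial markers were lower in both ATV-TfR pools, beside 32.1% of all genes. Microglia-like cells held 472 and 467 against 5637 and 4687 CPM of endothelial markers, and 5447 and 3149 against 347 and 272 CPM of astrocyte markers. No endothelial or astrocyte marker was at 0 in either of the large classes. Neuron markers in endothelial-like cells summed to 352 and 366 against 93.3 and 97.5 CPM, a list that contains Stmn2, which is also an arterial gene. Erythroid markers there were 1.51 and 2120 CPM in ATV-TfR and 578 and 13.2 in ATV-CD98hc, so pools of a group differed more than the groups.

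**Figure D4:**
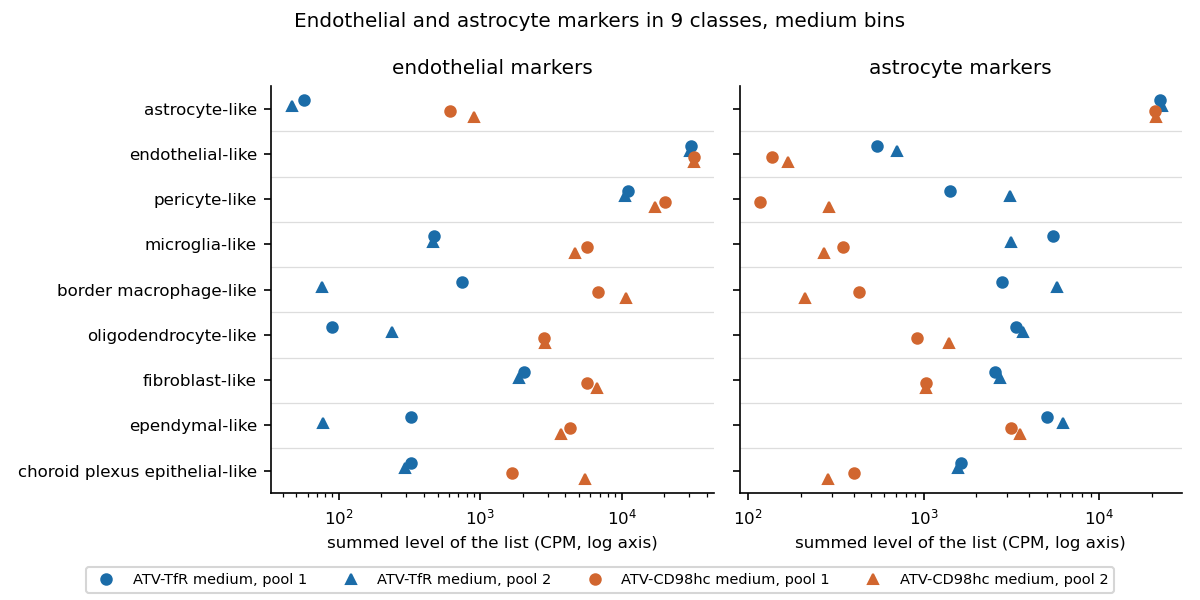
Summed level of 12 endothelial markers (left) and 12 astrocyte markers (right) in 9 classes of the 4 medium libraries (CPM, log axes), blue for ATV-TfR, orange for ATV-CD98hc, circles for pool 1 and triangles for pool 2. Outside pericyte-like and endothelial-like cells the endothelial sum is at most 2048 CPM in blue and up to 10656 CPM in orange, and outside astrocyte-like cells the astrocyte sum is higher in blue in every class.

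In endothelial-like cells most called genes were higher in ATV-TfR, and many of those have their highest level in astrocyte-like cells. Of 15545 genes tested 864 passed (5.56%), with ATV-TfR above in 749 (4.82%) and below in 115 (0.74%). Over all libraries, 376 of the 749 higher genes (50.2%) peak in astrocyte-like cells and 43 (5.74%) in endothelial-like cells, beside 13.03% and 11.7% of all genes tested. Of the 115 lower genes 45 (39.1%) are highest in endothelial-like cells. Among the 1822 genes highest in endothelial-like cells, 88 were called (4.83%). The count of 864 was 324 without ATV-TfR pool 2 and 1333 without ATV-CD98hc pool 2. Taken alone, arterial-like cells had 372 called genes of 13294 (2.8%), capillary-like cells 316 of 13524 (2.34%) and venous-like cells 105 of 13472 (0.779%).

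Most genes of the arterial list were higher, in the direction of the arterial-like share. The list is the set of markers that named the arterial-like sub-cluster, so it is not separate from that share. Of 13 tested genes of the arterial list 11 were higher and none lower, beside 4.82% higher over all genes. The median log2 fold change was 1.46 against -0.02 over all genes, and 6 of the 11 are highest in endothelial-like cells. Gkn3 was at 354 and 350 CPM against 71.3 and 90.4 (2.06, SE 0.32, adjusted p = 1.7e-04). Bmx, a tyrosine kinase of arterial endothelium, was at 92.1 and 98.6 against 34.1 and 32.8 CPM (1.46, SE 0.17, adjusted p = 7.5e-06). Vegfc, a growth factor of lymphatic vessels, was at 106 and 116 against 41.6 and 34.6 (1.49), and Hey1, a target of Notch signalling, at 115 and 110 against 39.3 and 48.8 (1.30).

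Within arterial-like cells alone most of these differences were small. Bmx was at 152 and 161 against 162 and 133 CPM (0.08, adjusted p = 0.96) and Vegfc at 176 and 191 against 199 and 142 (0.10, adjusted p = 0.95), with overlapping groups. Gkn3 was at 617 and 593 against 438 and 420 CPM (0.48, adjusted p = 0.68). Of the 13 arterial genes 3 passed there (Stmn2, Mgp and Clu), and Clu alone passed in capillary-like and in venous-like cells. Clu, clusterin, has its highest level in astrocyte-like cells. Stmn2, a stathmin, was in arterial-like cells at 520 and 546 against 348 and 323 CPM (0.65, adjusted p = 0.040). Mgp, the matrix Gla protein that inhibits calcification, was at 158 and 189 against 30.8 and 33.7 CPM in all endothelial-like cells (2.37, SE 0.26, adjusted p = 3.4e-06) and passed in arterial-like cells at 0.98 (adjusted p = 0.0037). Lypd1 (77.1 and 92.7 against 20.6 and 19.9 CPM; 2.01) and C1qtnf9 (23.5 and 30.0 against 6.70 and 6.61 CPM; 1.95) passed there at 0.88 and 0.85.

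Capillary and barrier lists had a few lower genes and medians below that of all genes. Of 11 capillary genes 2 were lower, Hmcn1 and Itih5 (list median -0.46), and of 13 venous genes 2 were higher, Vcam1 and Lrg1 (median -0.08). The capillary and venous lists also named those segments, so they are not separate from the segment shares. Lrg1 lost its call without ATV-CD98hc pool 2 (1.78, adjusted p = 0.068) or ATV-TfR pool 1 (1.47, adjusted p = 0.61). Vcam1, an adhesion molecule for leukocytes, was at 56.5 and 55.1 against 15.5 and 17.4 CPM (1.71, SE 0.34, adjusted p = 0.0021). It also passed in arterial-like cells (1.39, adjusted p = 4.0e-04) and in venous-like cells, where it was at 230 and 225 against 77.8 and 63.2 CPM (1.69, adjusted p = 0.012), and was at 0.10 in capillary-like cells. Within venous-like cells alone 4 of the 13 venous genes were higher and none lower, beside 0.735% of all genes higher, with a median of 1.07 against 0.0027 over all genes there. Of 14 tight junction genes 2 were lower (Cgnl1, Ctnnb1), of 16 solute and drug carriers 2 (Slc22a8, Slco2b1) and of 21 genes of barrier Wnt signalling 2 (Apcdd1, Nkd1), beside 0.74% of all genes. The medians of these lists were -0.32, -0.37 and -0.32 against -0.02 over all genes. Of these, only Apcdd1, an inhibitor of Wnt signalling, kept its call with each medium pool left out, at 253 and 250 against 536 and 446 CPM (-1.02, SE 0.16, adjusted p = 2.2e-04). The others lost it without at least 3 of the 4 pools, as did Itih5.

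Among iron and amino acid carriers, the called genes that are highest in endothelial-like cells were all lower in ATV-TfR outside the CD98hc complex. Over all genes tested in endothelial-like cells 0.74% were lower and 4.82% higher. Of 19 iron genes (median -0.15) 3 were lower, Tfrc, Slc39a8 and Slc40a1, and 1 was higher, Slc39a14, whose highest level is in astrocyte-like cells. Slc39a8, an importer of zinc, manganese and iron, was at 59.7 and 45.7 against 129 and 119 CPM (-1.29, SE 0.18, adjusted p = 5.1e-05), and passed in arterial-like (-0.95) and capillary-like cells (-0.81). Slc40a1, the iron exporter ferroportin, was at 186 and 181 against 343 and 327 CPM (-0.92, SE 0.16, adjusted p = 4.6e-04). Of 18 amino acid carriers outside the CD98hc complex (median -0.04) 3 were lower (Slc7a1, Slc7a3, Slc1a1) and 4 higher, and none of the 4 is highest in endothelial-like cells. Slc7a1, the carrier of cationic amino acids, was at 394 and 384 against 746 and 627 CPM (-0.87, adjusted p = 0.0024). It lost its call without ATV-TfR pool 2 (-0.88, adjusted p = 0.055), as Slc39a14 did without that pool or ATV-CD98hc pool 1, Slc7a3 without that pool and Slc1a1 without either ATV-TfR pool or ATV-CD98hc pool 1.

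Among genes highest in endothelial-like cells, the larger lower changes without overlap, a condition of their choice, included Ndnf and Tiam1. Ndnf, a secreted factor for neurons and vessels, was at 100 and 92.4 against 289 and 265 CPM (-1.58, SE 0.17, adjusted p = 3.8e-06). It passed in arterial-like (-0.94) and venous-like cells (-0.87). Tiam1, an activator of the GTPase Rac, was at 94.7 and 93.9 against 233 and 215 CPM (-1.30, SE 0.18, adjusted p = 3.3e-05) and passed in the same segments (-0.80 and -1.18). Hmcn1 (-1.30), Lmntd1 (-1.23), Rflnb (-1.22), Rbm20 (-1.27) and Dpp4 (-0.94) were also called and lost the call without ATV-TfR pool 2 (adjusted p = 0.056, 0.084, 0.055, 0.23 and 0.10), as Rbm20 did without ATV-CD98hc pool 1 (adjusted p = 0.20).

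Genes of astrocytes were higher in the endothelial-like cells of ATV-TfR, as their marker sums were. Of 16 endfoot and gap junction genes 9 were higher and none lower (median 1.04), and of 12 genes for the clearance of glutamate, GABA and glycine 8 were higher and none lower (median 1.85), all 8 with their highest level in astrocyte-like cells. Slc1a2, the main glutamate transporter of astrocytes, was at 188 and 232 against 35.3 and 47.7 CPM in endothelial-like cells (2.28, SE 0.34, adjusted p = 9.4e-05). Beside the 5.56% called over all genes, none of 20 cholesterol, 23 interferon-stimulated or 7 Fc receptor and antibody handling genes was called, while 1 of 28 lysosome, 1 of 11 heat shock, 1 of 16 glycolysis and hypoxia, 2 of 19 immediate early and 2 of 22 activated microglia genes were higher.

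Astrocyte-like cells showed more differences. Of 16073 genes 3196 passed (19.9%), with ATV-TfR above in 1815 (11.3%) and below in 1381 (8.59%). The count was 1340 without ATV-CD98hc pool 1, 1999 without ATV-TfR pool 2 and 2092 without ATV-TfR pool 1. Among the 2645 genes highest in astrocyte-like cells 532 were called (20.1%), 361 higher and 171 lower. Of the 1815 higher genes 400 (22.04%) are highest in choroid plexus epithelial-like cells, where 7.19% of all tested genes peak. The summed level of the 8 markers of that class went the other way, at 262 and 232 against 532 and 367 CPM. Of the 8 markers, 7 were lower in both ATV-TfR pools, beside 32.1% of all genes, and 1 was higher in both. Of the 1381 lower genes 383 (27.7%) are highest in endothelial-like cells, beside 9.59% of all tested. Telencephalic-like cells alone had 1625 called genes of 14609 (11.1%) and non-telencephalic-like cells 1695 of 14729 (11.5%).

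Regional genes differed in the direction of the cell shares. Both regional lists are the markers that named the regional types, so they are not separate from those shares. Of 7 telencephalic genes 5 were higher and 1 lower (median 0.76), and of 7 genes of astrocytes outside the telencephalon 3 were lower and none higher (median -0.31). Over all genes 11.3% were higher and 8.59% lower, with a median of 0.01. Emx2, a homeobox factor of cortical patterning, was at 40.2 and 46.4 against 21.6 and 23.7 CPM (0.96, SE 0.12, adjusted p = 1.1e-05), and Lhx2 at 110 and 137 against 63.2 and 72.5 (0.89, SE 0.14, adjusted p = 2.5e-04). Within telencephalic-like cells alone they were at 0.29 and 0.21 and did not pass. Mfge8 (0.76) lost its call without ATV-CD98hc pool 1 (adjusted p = 0.096) or ATV-TfR pool 2 (0.052). The lower one of the telencephalic list, Lef1 (-0.77), is highest in endothelial-like cells. Itih3, at 698 and 719 against 1017 and 1158 CPM (-0.59, SE 0.11, adjusted p = 0.0011), led the other list. Slc6a11 (-0.34) and Slc6a9 (-0.30) lost their calls in at least 3 of the 4 omissions of a pool.

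Some cholesterol genes were higher in astrocyte-like cells with the regional types combined, and fewer were called within a single type. Of 20 tested 10 were higher and none lower, beside 11.3% higher and 8.59% lower over all genes. The list median was 0.36 against 0.01 over all genes. Msmo1, an enzyme of late sterol synthesis, was at 720 and 628 against 410 and 384 CPM (0.79, SE 0.12, adjusted p = 1.7e-04). In the single types 2 of 20 passed in telencephalic-like and 4 in non-telencephalic-like cells, beside 11.1% and 11.5% of all genes there. Fdps (0.54) lost its call without ATV-CD98hc pool 1 (0.48, adjusted p = 0.077).

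Of 17 glycolysis and hypoxia genes 8 were called higher and 1 lower, with a median of 0.40. Over all genes 11.3% were higher and 8.59% lower. Vegfa, the vascular growth factor, was at 475 and 477 against 274 and 267 CPM (0.84, SE 0.08, adjusted p = 5.9e-07), and it passed in telencephalic-like (0.85) and non-telencephalic-like cells (0.65). Ldha, which makes lactate, was at 128 and 128 against 54.7 and 81.5 CPM (0.93, SE 0.14, adjusted p = 1.1e-04), and the glycolytic enzyme Tpi1 at 221 and 225 against 137 and 148 (0.67, SE 0.10, adjusted p = 1.2e-04). Of the 8 higher genes 1 (Vegfa) is highest in astrocyte-like cells. Gapdh (0.69) and Adm (1.21) lost their calls without ATV-CD98hc pool 1 (adjusted p = 0.086 and 0.15). Ndrg1, the lower one (-2.93), has its highest level in oligodendrocyte-like cells.

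Some lysosome and stress genes were higher as well. Of 28 lysosome genes 8 were higher and none lower, none of the 8 being highest in astrocyte-like cells (median 0.23), beside 11.3% higher and 8.59% lower over all genes. Among them was Asah1, an acid ceramidase, at 167 and 145 against 104 and 108 CPM (0.58, SE 0.09, adjusted p = 1.3e-04). Cd63, a membrane protein of late endosomes, was at 729 and 694 against 423 and 526 CPM (0.61, SE 0.13, adjusted p = 0.0027) and lost its call without ATV-CD98hc pool 1 (0.47, adjusted p = 0.069). Of 27 genes of the integrated stress and amino acid response 8 were higher and none lower (median 0.24). Only 1 of these 8 is highest in astrocyte-like cells, Vegfa, which is also in the glycolysis and hypoxia list. Nupr1, a stress-induced nuclear protein, was at 34.3 and 46.2 against 4.71 and 7.96 CPM (2.68, SE 0.27, adjusted p = 8.4e-07). Psph, which completes serine synthesis, was at 85.1 and 92.2 against 53.9 and 62.8 CPM (0.63, SE 0.11, adjusted p = 3.7e-04). In the heat shock list 3 of 11 were higher and Hspb1 was lower (-3.12; median 0.27). Hspa5 of that list, the chaperone BiP of the endoplasmic reticulum, was at 329 and 305 against 202 and 181 CPM (0.75, SE 0.12, adjusted p = 2.7e-04). Glul, glutamine synthetase, the 1 higher gene of the clearance list beside the lower Slc6a11 and Slc6a9, was at 1738 and 1829 against 1162 and 1250 CPM (0.59, SE 0.09, adjusted p = 1.9e-04).

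Tight junction, barrier Wnt, interferon-stimulated and reactive astrocyte lists had lower genes and no higher ones in the astrocyte-like cells of ATV-TfR. Over all genes tested there 8.59% were lower, and the median was 0.01. Of 15 tight junction genes 10 were lower (median -1.84), 9 of them highest in endothelial-like cells, and of 21 barrier Wnt genes 10 were lower (median -0.64), all 10 highest there. Of 23 interferon-stimulated genes 13 were lower (median -0.79), 8 highest in endothelial-like and none in astrocyte-like cells, as with Isg15 at 1.59 and 1.30 against 5.47 and 9.77 CPM. Of 25 reactive astrocyte genes 12 were lower (median -0.67), 5 highest in endothelial-like cells and 1 in astrocyte-like cells. The endothelial marker sum moved with these lists, and its part was not tested.

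The largest differences in astrocytes' own genes included Lama3, a laminin chain, at 41.6 and 47.2 against 9.57 and 18.6 CPM (1.67, SE 0.21, adjusted p = 1.8e-05). Chrdl1, a secreted antagonist of bone morphogenetic proteins, was at 51.7 and 57.1 against 15.04 and 21.2 CPM (1.61, SE 0.14, adjusted p = 1.0e-07). Rpe65, best known as the retinoid isomerase of the retinal pigment epithelium, was at 38.3 and 48.9 against 15.5 and 15.9 CPM (1.50, SE 0.18, adjusted p = 1.0e-05). These 3 were chosen as large changes without overlap between the groups, and each also passed in telencephalic-like cells alone (1.01, 0.99 and 0.92). Fjx1 was at 702 and 665 against 302 and 329 CPM (1.14, SE 0.12, adjusted p = 1.4e-06) and passed in both regional types (0.89 and 0.62). Telencephalic-like cells themselves differed in make-up. Their sub-cluster with Crym, Hopx and Chrdl1 among its leading genes was 28.6% and 31.6% against 10.1% and 14.8% of astrocyte-like cells. Their other sub-cluster was 17.8% and 20.5% against 20.1% and 18.1%. The part of this mix in the values within that type was not tested. On the lower side, Nrxn3, a synaptic adhesion molecule, was at 249 and 209 against 439 and 406 CPM (-0.86, SE 0.15, adjusted p = 5.0e-04). In the largest astrocyte sub-cluster alone Nrxn3 was called in the opposite direction (1.08, adjusted p = 0.0082). Adcy8, an adenylyl cyclase, was at 186 and 163 against 322 and 290 CPM (-0.78, SE 0.14, adjusted p = 4.6e-04) and passed in both types (-1.01 and -0.27). Rtl4, at 26.5 and 21.2 against 101 and 49.6 CPM (-1.63), lost its call without ATV-CD98hc pool 1 (-1.02, adjusted p = 0.16).

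Because the medium libraries differ so much in make-up, libraries rich in the same class were also set side by side. For endothelial-like cells these were ATV-TfR high against ATV-CD98hc medium, and for astrocyte-like cells ATV-TfR medium against ATV-CD98hc low. Each shares libraries with the medium comparison, so its values are given as descriptions beside it. Each pair sets different gates side by side, so gate and make-up both change from the medium comparison, and their parts were not tested. The pairs also still differ in make-up. Astrocyte-like cells were 3.26% and 2.44% of ATV-TfR high against 7.43% and 9.24% of ATV-CD98hc medium. Endothelial-like cells were 17.2% and 16.3% of ATV-TfR medium against 11.7% and 11.1% of ATV-CD98hc low. Microglia-like cells were 0.103% and 0.0721% against 1.54% and 0.677% in the endothelial pair. In the astrocyte pair they were 0.421% and 0.373% against 13.004% and 11.1%. Of 10 mature microglia genes 6 were lower in the endothelial pair (median -1.94) and 8 in the astrocyte pair (median -3.59), and their part in the lower genes was not tested.

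The endothelial pair had 207 called genes of 15545 (1.33%), 5 higher (0.0322%) and 202 lower (1.3%) in ATV-TfR. Leaving out ATV-TfR high pool 1, ATV-TfR high pool 2 or ATV-CD98hc medium pool 2 gave 79, 36 or 492. No gene of the arterial list was higher and 1 was lower, Fbln5 (-2.31, adjusted p = 0.0058), and 4 of 12 clearance genes were lower. Tfrc was at -1.04 (adjusted p = 0.0040) beside -2.20 in the medium bins, and Slc3a2 at 1.50 (adjusted p = 2.2e-04) beside 0.84. Slc39a8 was at 0.02 beside -1.29, Slc40a1 at -0.04 beside -0.92, Ndnf at -0.09 beside -1.58 and Slc7a5 at 0.07 beside -0.81.

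The astrocyte pair had 360 called genes of 16073 (2.24%), 78 higher (0.485%) and 282 lower (1.75%), and 195 to 239 when single libraries were left out. Neither regional list nor the cholesterol list had a called gene there, with medians of 0.27, 0.00 and 0.14. The lysosome list had none higher and 1 lower, and the heat shock list had 2 higher. The stress and amino acid list had 1 higher, Vegfa, which is also in the glycolysis and hypoxia list. The glycolysis and hypoxia list still had 4 higher genes and none lower, Vegfa at 0.52 (adjusted p = 3.4e-04), Ldha at 0.68 (adjusted p = 0.0033), Tpi1 at 0.39 (adjusted p = 0.039) and Adm at 1.13 (adjusted p = 0.0024). Slc3a2 was at 1.16 (adjusted p = 4.1e-07) and Hspa5 at 0.48 (adjusted p = 0.038), while Tfrc at -0.23 and Slc7a5 at 0.07 did not pass. Lama3, Chrdl1 and Rpe65 were at 0.28, 0.22 and -0.06 and did not pass.

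**Figure D5:**
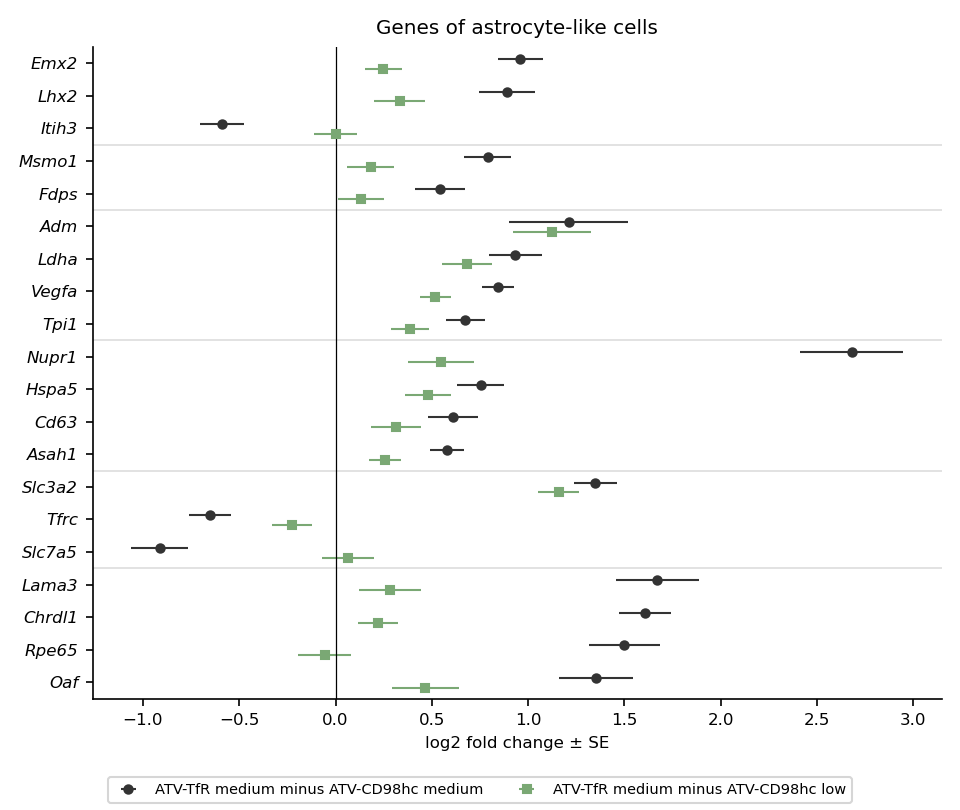
Log2 fold change with its standard error for 20 genes of astrocyte-like cells, in ATV-TfR medium minus ATV-CD98hc medium (black circles) and in ATV-TfR medium minus ATV-CD98hc low (green squares), which share the ATV-TfR libraries. Slc3a2 lies at 1.35 and 1.16 and Vegfa at 0.84 and 0.52, while Rpe65 lies at 1.50 and -0.06.

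Some gene differences were tested as differing from those at the neighbouring gate. In endothelial-like cells 25 of 15545 genes had another contrast in the medium than in the high bins (0.161%), all larger at medium. Of the 25, 8 are highest in astrocyte-like and 5 in endothelial-like cells, where 13.03% and 11.7% of all tested genes peak. The 5 are Bmx (1.61), Mannr (1.53), Vegfc (1.47), C1qtnf9 (1.40) and Egfl8 (1.86). The arterial-like share of endothelial-like cells also differed more between the antibodies at medium than at high. Its part in these contrasts was not tested. In the medium bins C1qtnf9 passed within arterial-like cells alone, and Bmx and Vegfc did not. With the pool of mice as a term 593 genes passed, among them all 25. The count was 1 without ATV-TfR medium pool 2 or ATV-TfR high pool 2, 7 without ATV-TfR high pool 1, 42 without ATV-CD98hc medium pool 2 and 49 without ATV-CD98hc medium pool 1. In astrocyte-like cells 173 of 16073 genes had another contrast in the medium than in the low bins (1.08%), 50 higher and 123 lower at medium. Of these, 79 are highest in endothelial-like and 24 in astrocyte-like cells, where 9.59% and 16.5% of all tested genes peak. The 24 include Rpe65 (1.28), Lama3 (1.20), Chrdl1 (1.19) and Fjx1 (0.83). With the pool of mice as a term 511 passed, among them all 173. Leaving out single libraries gave 57 (ATV-TfR low pool 1) to 134, with 65 without ATV-TfR medium pool 2, 75 without ATV-CD98hc low pool 1, 89 without ATV-CD98hc medium pool 2, 98 without ATV-CD98hc low pool 2 and 114 without ATV-TfR low pool 2.

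The smaller classes had between 26 and 542 cells a library, and smooth muscle-like cells were too few to test. Pericyte-like cells had 657 called genes of 11899 (5.52%), but 0 of the 904 genes highest in pericyte-like cells. They carried 11046 and 10589 against 20236 and 17258 CPM of endothelial markers.

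Ependymal-like cells line the ventricles, and 241 of 9481 genes were called in them (2.54%), 63 higher and 178 lower. The 8 ependymal markers summed to 1906 and 3219 CPM in ATV-TfR and 5357 and 5440 in ATV-CD98hc, with 7 of 8 lower in both ATV-TfR pools, beside 20.5% of all genes. Choroid plexus markers were at 3833 and 329 against 999 and 907 CPM, so ATV-TfR pool 1 stood apart. The part of these sums in the calls was not tested. Sspo, which encodes SCO-spondin of the subcommissural organ, had UMIs in 5 of 36 and 2 of 26 cells of ATV-TfR and in 1 of 32 and 0 of 32 cells of ATV-CD98hc, with levels of 884 and 580 against 3.56 and 0 CPM. The ratio of summed levels was 388 (95% counting interval 69.1 to 15364; adjusted p = 1.0e-07). Spdef and Npsr1 were in the same 5 and 2 cells and in no ATV-CD98hc cell, at least 34.0-fold and at least 26.8-fold higher against a floor of 3 UMIs over the group. Spdef lost its call without ATV-TfR pool 1 (adjusted p = 0.10). On the other side, 14 of 32 and 14 of 32 cells of ATV-CD98hc held at least 1 of Cd55, Barx2 and Krt15, against 0 and 1 of the ATV-TfR cells. All 3 of those genes lost their calls without ATV-TfR pool 1 (adjusted p = 0.15, 0.20 and 0.13), and Cd55 also without ATV-CD98hc pool 1 (0.12). All of this rests on 126 cells.

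Fibroblast-like cells, of the meninges and vessel sheaths, had 476 called genes of 11892 (4.0%). Of the 234 higher genes 184 (78.6%) peak in astrocyte-like cells, beside 13.4% of all tested. Of the 242 lower genes 123 (50.8%) peak in endothelial-like cells, beside 11.5%. Among the 1331 tested genes highest in fibroblast-like cells 41 were called (3.08%). Ranbp3l was at 2.16 and 9.66 against 211 and 201 CPM, in 1 and 2 cells against 26 and 40 cells (-5.05, SE 0.60, adjusted p = 1.4e-05). Epha3, an ephrin receptor, had 2 UMIs in ATV-TfR and 176 in ATV-CD98hc, a ratio of 42.6 (interval 11.6 to 355; adjusted p = 1.4e-05). Fgfbp1 had 1 UMI against 105 (ratio 50.9, interval 8.94 to 2029) and lost its call without ATV-TfR pool 2 (adjusted p = 0.059).

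Microglia-like cells had 1001 called genes of 12954 (7.73%). Of the 738 higher genes 469 (63.6%) peak in astrocyte-like cells, beside 13.6% of all tested. Of the 263 lower genes 177 (67.3%) peak in endothelial-like cells, beside 11.2%. Of the 2408 tested genes highest in microglia-like cells 39 were called (1.62%). Cst7, cystatin F of activated microglia, was at 86.8 and 97.2 against 19.5 and 6.33 CPM (2.72, SE 0.56, adjusted p = 0.0018). Il4i1, an amino acid oxidase, was at 79.9 and 85.5 against 17.0 and 12.7 CPM (2.53, SE 0.44, adjusted p = 3.2e-04). These levels come from 6 to 12 cells in 3 libraries and from 3 and 6 cells in ATV-CD98hc pool 2. Ccl6 was at 247 and 758 against 134 and 101 CPM (2.17) and lost its call without ATV-TfR pool 2 (1.06, adjusted p = 0.055).

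Oligodendrocyte-like cells had 939 called genes of 12866 (7.3%). Of the 453 higher genes 272 (60.0%) peak in astrocyte-like cells, beside 14.9% of all tested. Of the 486 lower genes 257 (52.9%) peak in endothelial-like cells, beside 10.8%. Of the 1654 tested genes highest in oligodendrocyte-like cells 122 were called (7.38%). Serpinb1a was at 23.9 and 42.2 against 151 and 181 CPM (-2.27, SE 0.30, adjusted p = 5.6e-05), a call that held with each pool left out. Fam83d, at 47.8 and 37.6 against 11.1 and 9.78 CPM (2.06), lost its call without ATV-CD98hc pool 1 (adjusted p = 0.069). Choroid plexus epithelial-like cells had 1130 called genes of 12630 (8.95%). Of the 468 higher genes 342 (73.1%) peak in astrocyte-like cells, beside 13.3% of all tested. Of the 662 lower genes 382 (57.7%) peak in endothelial-like cells, beside 11.2%. Of the 1320 tested genes highest in choroid plexus epithelial-like cells 28 were called (2.12%). F5, coagulation factor V, was at 437 and 403 against 633 and 622 CPM there (-0.57, SE 0.13, adjusted p = 0.0033) and lost its call without ATV-TfR pool 2 (adjusted p = 0.090).

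Border macrophage-like cells had 588 called genes of 8929 (6.59%). Of the 309 higher genes 235 (76.1%) peak in astrocyte-like cells, beside 13.1% of all tested. Of the 279 lower genes 209 (74.9%) peak in endothelial-like cells, beside 12.9%. Of the 1171 tested genes highest in border macrophage-like cells 14 were called (1.20%). Top2a, needed for chromosome separation in dividing cells, had UMIs in 3 and 3 cells of ATV-TfR and in 0 of 103 and 0 of 101 cells of ATV-CD98hc, at least 8.12-fold higher, and lost its call without ATV-CD98hc pool 1 (adjusted p = 0.058). Mki67, another gene of dividing cells, was in 2 and 3 against 0 and 1 cells (ratio 23.1, interval 3.68 to 962) and lost its call without either ATV-CD98hc pool or ATV-TfR pool 2 (adjusted p = 0.23, 0.056 and 0.26). Astrocyte markers in this class summed to 2784 and 5725 against 427 and 212 CPM, and the unnamed cluster led by Top2a had cells in the ATV-TfR libraries alone among these 4. Their part in these counts was not tested. The intervals and floors in the small classes cover counting error only.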

How the data were processed

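The authors' matrix, a deposited table of unnormalized UMI counts, covers 32285 genes and 265025 barcodes and was made with Cell Ranger 7.1.0, per the file headers. The submitters' processing notes name the builds mm10 and GRCm38, and Seurat 4 and 5, with no role. Barcodes were mapped to libraries by the number after their hyphen. Cells were filtered as stated in the report, doublets were scored with Scrublet (above the 94th percentile in the 8 libraries where its threshold failed), and 2000 variable genes without Tfrc and Slc3a2 were clustered (scanpy 1.11.5, 50 components, Leiden resolution 1, sub-clusters 0.5). Cells or UMIs were summed per library and class (at least 20 cells) and tested with edgeR 4.0.16 (quasi-likelihood, TMM, 1 mean per group over all 23 libraries, Benjamini-Hochberg adjustment over all features, threshold 0.05). A class or type was named from markers, and a gene's highest class was taken over all libraries. Named genes were the 10 largest called changes each way among a class's own genes with at least 20 CPM and no overlap between the groups (3 each way in the small classes), the receptors, and called members of 28 gene lists. The members and lists were chosen with earlier results of these data known. On data simulated for the endothelial-like contrast (13245 genes), 64 of 99 genes changed by a fold of 2 and 95 of 100 changed by a fold of 4 were called, with 9 of 13046 unchanged genes. Alternatives included DESeq2 1.42.0, other filters, other denominators, single vessel segments or astrocyte types, the pool of mice as a term in the differences between gates, and leaving out each library. Genes of the 4 unnamed clusters and of smooth muscle-like cells were not tested. Values of some genes are not reported here.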

Additional observations from a re-analysis of the deposited data

Results flagged for a closer look

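Each result below is a difference between the antibodies that itself differed between gates by an interaction term of the edgeR fit. On the log2 scale, the difference in astrocyte-like cell numbers exceeded that of the low bins by 2.83 and that of the high bins by 2.48. Where a class already fills most of a library, its share has little room to be higher in the other group. The part of that limit was not tested. Against the high bins the difference in cell numbers also changed by -2.28 for endothelial-like, -1.77 for pericyte-like, 1.48 for border macrophage-like, 2.88 for fibroblast-like and 4.16 for ependymal-like cells. The last value rests on only 3 and 1 ependymal-like cells in the ATV-TfR high bins.

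In endothelial-like cells 25 genes differed between the medium and high bins in this way. Among them were Vegfc (1.47), a gene of the arterial list, and Mannr (1.53), C1qtnf9 (1.40) and Egfl8 (1.86). The arterial-like share of these cells also differed more between the antibodies at medium than at high, and its part was not tested. Leaving out single libraries gave 1 to 49 such genes. In astrocyte-like cells 173 genes differed between the medium and low bins, and leaving out single libraries gave 57 to 134. Of the genes named there, Rpe65 stood at 1.28, Lama3 at 1.20, Chrdl1 at 1.19, Ppp1r3g at 1.05, Ankrd29 at 1.01, Lypd6 at 0.88 and Fjx1 at 0.83. Groups of 2 pools cannot be searched for single outlying samples.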

How the results depend on the processing

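The calls of astrocyte-like and endothelial-like cell numbers held under every alternative that tested them. A class taken out of the denominator was also taken out of the test. The astrocyte-like difference was smaller with endothelial-like cells out of the denominator. Leaving out single libraries gave 2 to 4 called classes, 1 to 3 endothelial types, 0 to 1 astrocyte sub-clusters and 0 to 2 astrocyte types. With endothelial-like and astrocyte-like cells out of the denominator 3 classes were called. With endothelial-like cells out, border macrophage-like (-1.91), ependymal-like (-1.93), oligodendrocyte-like (-1.35) and smooth muscle-like cells (-1.26) changed sign.

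For genes, leaving out single libraries gave 324 to 1333 in endothelial-like, 1340 to 2591 in astrocyte-like and 2818 to 4678 in the 7 other classes together (5032 with all libraries, 2700 under the stricter filter). It gave 1 to 49 and 57 to 134 for the differences between gates, and 36 to 492 and 195 to 239 for the endothelial and astrocyte make-up-matched pairs. DESeq2 gave 138 genes for medium against high bins in endothelial-like cells, and the stricter filter 136 for the astrocyte pair. Parts of a class gave fewer genes: 223 in the largest endothelial sub-cluster, 372 in arterial-like, 316 in capillary-like and 105 in venous-like cells, 1126 in the largest astrocyte sub-cluster, 1625 in telencephalic-like and 1695 in non-telencephalic-like cells. The cause of these shifts was not tested. The vessel and astrocyte types were chosen as alternatives after seeing the data.

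Pool numbers stand for different animals in each treatment and do not pair the treatments. Deviations of same-numbered pools correlated at 0.163 in astrocyte-like and -0.045 in endothelial-like cells, and from -0.115 to 0.138 in the other 7 classes. With the replicate block the counts were 986 (endothelial-like), 3835 (astrocyte-like), 77 and 285 (differences between gates), and 318 and 572 (matched pairs). The bins of a pool do share mice, and with the pool of mice as a term the differences between gates gave 593 and 511 genes.

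Of the called named genes, 8 of 48 in endothelial-like and 27 of 60 in astrocyte-like cells kept their call under every alternative run other than the vessel and astrocyte types. These changed sign. In the largest endothelial sub-cluster they were Gkn3 (-0.33), Lypd1 (-0.11), Igfbp3 (-1.21), Egfl8 (-0.014), Mannr (-0.34), Vegfc (-0.69), Mgp (-0.30), Sema3g (-0.17) and Bmx (-0.20). In capillary-like cells they were Gkn3 (-0.54), Igfbp3 (-0.12), Egfl8 (-0.086), Mannr (-0.43), Cdh13 (-0.048), Vegfc (-0.59), Mgp (-0.38), Sema3g (-0.15) and Bmx (-0.38), and in venous-like cells Alpl (-0.30). In the largest astrocyte sub-cluster they were Cdh22 (0.62), Nrxn3 (1.08), Lhx2 (-0.0095), Slc6a9 (0.33) and Adm (-0.33). In non-telencephalic-like cells they were Car8 (-0.15), Slc6a9 (0.17) and Slc6a11 (0.065), in telencephalic-like cells Rimbp2 (0.37), and without ATV-CD98hc pool 2 Aspg (0.012, with -1.17 the lowest of the single omissions). Depth limits the classes of under 100 cells a library, where some named genes rest on a few cells.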
